A study of Rattus norvegicus with 6 samples.

Results

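The genes described here mostly encode the nuclear subunits of complexes II to V of oxidative phosphorylation, together with the mobile electron carrier cytochrome c. They were taken by name from the deposited table as the protein-coding entries whose symbol begins with Uqcr, Cox4 to Cox8 or Atp5, or is one of Sdha, Sdhb, Sdhc, Sdhd, Cyc1 and Cycs. This gave 52 of the 34170 genes of the table, with 4 in complex II, 10 in complex III, 1 for cytochrome c, 20 in complex IV and 17 in complex V. The choice by symbol also took in the inhibitory factor Atp5if1, the supercomplex factor Cox7a2l and Cox6c-ps1, whose symbol is that of a pseudogene. They are counted here with the subunit genes of their complex. Retinas of 3 diabetic and 3 control rats were profiled by sequencing of poly-A RNA, and all 6 animals were males of the outbred Sprague-Dawley stock. The diabetic rats had received streptozotocin, a toxin of pancreatic beta cells, as intraperitoneal injections of 60 mg/kg after a fast of 12 h on 5 consecutive days. The control rats, labelled WT, had received citrate buffer on the same days, and the labels name no allele that differs between the groups. Diabetes was defined by a fasting blood glucose above 16.7 mmol/L at 1 week after the last injection, and the age at collection was not given in the sources used here. Labelled body weights were 102.3 ± 1.81 g in diabetic rats and 106.6 ± 3.59 g in control rats (SD, n = 3 each).

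Complex II, or succinate dehydrogenase, passes electrons from succinate to ubiquinone and is built from nuclear-encoded subunits alone. Complex III passes them on to cytochrome c, complex IV passes them from cytochrome c to oxygen, and complex V, the ATP synthase, uses the resulting proton gradient to make ATP. Some subunits of complexes III to V are encoded by the mitochondrial genome, among them the core of complex IV and the proton channel of complex V, and the nuclear subunits are made in the cytosol and imported. The retina has a high oxygen demand, and the inner segments of its photoreceptors are densely packed with mitochondria.

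Levels are in FPKM, which divides the fragments of a gene by its length and by the size of the library. Differences are on log2(FPKM + 0.5), diabetic minus control, from a limma fit over the 16363 genes that averaged 0.5 FPKM or more. Libraries held between 16277864 and 19115426 fragments in the diabetic group and between 12417686 and 16941864 in the control group. For a gene 1 kb long, 3 fragments equal 0.158 to 0.177 FPKM in diabetic libraries and 0.176 to 0.248 FPKM in control libraries. Gnat1, the rod transducin gene and a marker of retina, was at 3638, 3286 and 3607 FPKM in diabetic 1, 2 and 3 and at 4779, 5127 and 5146 FPKM in control 1, 2 and 3. The 2 red blood cell markers measured summed to 0.236 to 0.339 FPKM in diabetic libraries and 0.223 to 0.440 FPKM in control libraries. Lens markers stood apart in control 3, where 6 genes summed to 343.3 FPKM, against between 8.55 and 42.9 FPKM in diabetic libraries and 9.93 and 37.4 FPKM in control 1 and control 2.

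Of the 52 genes, 46 passed the filter on low values, and 45 of these had a negative log2 difference, meaning a lower level in diabetic retina, where 49.9% of all tested genes did. None passed the Benjamini-Hochberg adjusted p of 0.05 in limma, and of all tested genes 0 did, or 0%. The smallest adjusted p among the 46 was 0.127. At an unadjusted p below 0.05, 31 of the 46 were lower in diabetic retina against 10.7% of all tested genes, and 0 of the 46 were higher against 9.15%. In 29 of the 46 every diabetic library lay below every control library, which was the case in 13.6% of all tested genes. The median log2 difference of the 46 was -0.37, and that of all tested genes was 0.00034. By complex the medians were -0.48 for complex III, -0.35 for complex IV and -0.39 for complex V, and all 3 were negative under each scaling tried. The median of complex II was -0.13, but 0.0028 in TPM and 0.0064 under quantile normalization. In TPM the median of all tested genes was itself 0.13. Voom on the rebuilt fragments called 2 genes of the whole table and 0 of these 46.

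**Figure D1:**
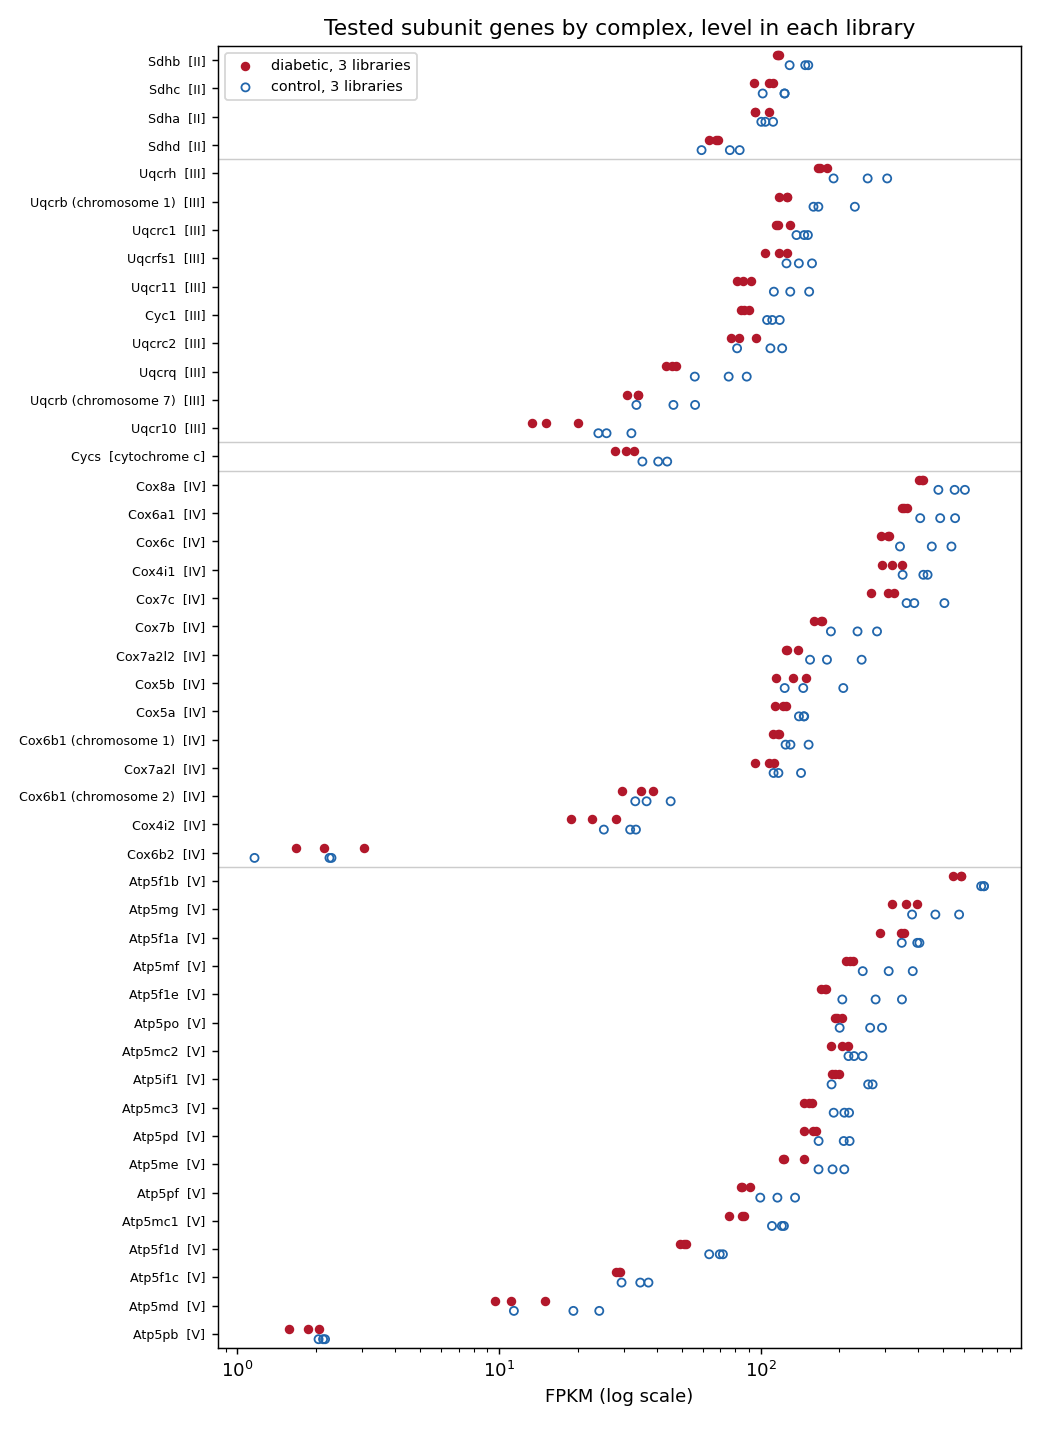
FPKM of the 46 tested subunit genes in each library on a log scale, grouped by complex, with filled points for the 3 diabetic and open points for the 3 control libraries. In 29 genes the filled points all lie left of the open ones.

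The promoters of respiratory chain genes are known for binding sites of the activator NRF-1 and of GABP, an ETS family factor, so windows of 250 bases before to 50 bases after the start were taken from RefSeq (build GRCr8). Of the 50 symbols, 42 had a promoter, and 39 of these lay on the chromosome of the deposited entry. The letters CCGGAAG or their reverse complement CTTCCGG, an ETS core, were found in 12 of the 39, or 30.8%, and in 8.74% of all 33469 promoters and 10.7% of the 21851 of protein-coding genes. The letters GCGCANGCG or CGCNTGCGC, taken from the NRF-1 motif, were found in 9 of the 39, or 23.1%, and in 5.80% of all promoters and 7.62% of those of protein-coding genes, counting overlapping matches. At least 1 of the motifs was present in 19 of the 39, or 48.7%, and in 13.4% of all promoters. Matches are a description of letters and not of binding. The 250 bases before the start follow for 5 genes whose groups did not overlap, with the motif letters in capitals. Sdhb, Uqcrq and Cox8a hold the ETS letters, Atp5me holds both motifs, with 2 overlapping NRF-1 matches that run as 1 stretch, and Atp5mc1 holds neither in this window. They lie at chr5:158547684-158547933 on the plus strand for Sdhb, chr10:38089979-38090228 on the minus strand for Uqcrq, chr1:213833624-213833873 on the minus strand for Cox8a, chr14:1464610-1464859 on the plus strand for Atp5me and chr10:81523346-81523595 on the minus strand for Atp5mc1.
Sdhb: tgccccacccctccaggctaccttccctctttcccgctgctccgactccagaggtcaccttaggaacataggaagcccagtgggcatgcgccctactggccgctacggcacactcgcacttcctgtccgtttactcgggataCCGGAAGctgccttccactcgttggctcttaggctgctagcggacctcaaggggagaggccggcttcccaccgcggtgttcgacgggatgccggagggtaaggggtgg
Uqcrq: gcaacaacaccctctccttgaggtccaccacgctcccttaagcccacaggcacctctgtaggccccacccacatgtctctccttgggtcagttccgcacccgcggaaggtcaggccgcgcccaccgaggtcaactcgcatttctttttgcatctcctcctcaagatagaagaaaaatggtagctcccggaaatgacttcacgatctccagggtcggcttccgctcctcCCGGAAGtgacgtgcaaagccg
Cox8a: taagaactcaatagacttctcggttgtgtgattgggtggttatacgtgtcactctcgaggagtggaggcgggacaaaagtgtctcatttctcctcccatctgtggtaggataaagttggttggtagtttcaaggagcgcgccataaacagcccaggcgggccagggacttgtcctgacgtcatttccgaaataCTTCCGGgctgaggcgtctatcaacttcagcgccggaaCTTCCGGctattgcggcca
Atp5me: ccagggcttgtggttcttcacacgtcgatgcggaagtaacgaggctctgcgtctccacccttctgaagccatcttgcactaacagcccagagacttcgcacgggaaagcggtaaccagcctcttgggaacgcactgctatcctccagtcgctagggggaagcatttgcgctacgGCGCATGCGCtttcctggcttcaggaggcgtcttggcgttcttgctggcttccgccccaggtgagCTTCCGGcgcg
Atp5mc1: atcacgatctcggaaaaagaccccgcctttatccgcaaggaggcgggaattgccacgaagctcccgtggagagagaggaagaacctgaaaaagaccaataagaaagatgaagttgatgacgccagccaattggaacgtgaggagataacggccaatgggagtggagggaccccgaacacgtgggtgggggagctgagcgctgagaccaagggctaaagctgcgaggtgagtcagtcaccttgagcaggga

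In complex II the iron-sulfur subunit gene Sdhb had the largest difference. Sdhb was at 116.3, 115.4 and 117.4 FPKM in diabetic 1, 2 and 3 and at 148.2, 152.1 and 129.1 FPKM in control 1, 2 and 3. The diabetic values lay close together and below all control values, with a log2 difference of -0.29 (95% interval -0.49 to -0.10, adjusted p = 0.151, limma). Sdha, the flavoprotein subunit that oxidizes succinate, was at 107.8, 95.5 and 95.4 FPKM in diabetic libraries and at 104.3, 111.6 and 100.7 FPKM in control libraries, so the groups overlapped. The membrane anchor gene Sdhc measured 111.7, 94.6 and 107.4 FPKM in diabetic retina and 123.5, 123.5 and 101.9 FPKM in control retina. The other anchor gene, Sdhd, measured 67.8, 63.5 and 68.5 FPKM in diabetic retina and 76.3, 83.2 and 59.5 FPKM in control retina. Control 3 lay below 2 diabetic libraries in Sdhc and below all 3 in Sdhd. The log2 differences were -0.08 for Sdha, -0.15 for Sdhc and -0.12 for Sdhd, and their signs depended on the scaling. Sdha and Sdhd were positive in TPM (0.053 and 0.019), but both lay below the TPM median of all tested genes, 0.13. Sdha and Sdhc were positive under quantile normalization (0.091 and 0.013).

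In complex III all 10 genes had negative log2 differences under each scaling tried. At an unadjusted p below 0.05, 9 were lower, against 10.7% of all tested genes. Cyc1 encodes cytochrome c1, the heme subunit that hands electrons to cytochrome c. It was at 86.6, 83.8 and 90.5 FPKM in diabetic libraries and at 110.8, 118.3 and 105.9 FPKM in control libraries. The groups did not overlap, and the log2 difference was -0.36 (95% interval -0.53 to -0.18, adjusted p = 0.128, limma). Uqcrfs1, the Rieske iron-sulfur protein, was at 126.7, 104.3 and 117.8 FPKM in diabetic retina and at 140.0, 157.2 and 125.6 FPKM in control retina, and diabetic 1 lay just above control 3. The core protein gene Uqcrc1 was at 115.0, 116.6 and 129.6 FPKM in diabetic retina and at 151.6, 146.8 and 137.1 FPKM in control retina, without overlap. Its partner Uqcrc2 averaged 85.4 ± 9.93 FPKM in diabetic and 103.8 ± 20.3 FPKM in control retina (SD, n = 3 each) and overlapped.

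The small accessory subunits of complex III included the most negative difference of the 46 genes. Uqcr10 was at 20.1, 13.4 and 15.1 FPKM in diabetic libraries and at 25.8, 32.1 and 24.0 FPKM in control libraries. Every diabetic value was lower than every control value, and the log2 difference of -0.74 (95% interval -1.15 to -0.34, adjusted p = 0.131, limma) had an interval below 0. Uqcr11 was at 91.5, 85.3 and 81.1 FPKM in diabetic libraries and at 129.8, 153.3 and 112.4 FPKM in control libraries, again without overlap, with a log2 difference of -0.60 (adjusted p = 0.128, limma). Uqcrq had a log2 difference of -0.66, with means of 45.6 ± 2.10 FPKM in diabetic and 73.3 ± 16.3 FPKM in control retina (SD, n = 3 each). Uqcrh, the hinge protein that contacts cytochrome c1, averaged 171.1 ± 7.69 FPKM in diabetic and 250.5 ± 57.6 FPKM in control retina (SD, n = 3 each), with -0.52 on the log2 scale. In these last 2 genes the control values were far more spread than the diabetic values. Uqcrb was listed at 2 places. The entry on chromosome 1, from 94718402 to 94718876 in the coordinates of the files, is 1 unbroken block of 475 nt and had a log2 difference of -0.56. The entry on chromosome 7 spans 5356 nt with a gene length of 1029 nt and had -0.43. How reads were divided between such copies was not given in the sources used here. Both values are therefore uncertain.

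Cytochrome c shuttles electrons between complexes III and IV. Cycs was at 32.7, 27.7 and 30.6 FPKM in diabetic 1, 2 and 3 and at 40.6, 43.9 and 35.3 FPKM in control 1, 2 and 3. The groups did not overlap, with a log2 difference of -0.39 (95% interval -0.64 to -0.14, adjusted p = 0.145, limma). This entry lies on chromosome 18 as 1 block of 318 nt, whereas RefSeq places Cycs on chromosome 4. The table also holds LOC100363502 on chromosome 4, described there as a somatic-like cytochrome c gene and not chosen by the symbols above. LOC100363502 was at 62.6, 59.5 and 63.9 FPKM in diabetic libraries and at 91.5, 105.9 and 68.4 FPKM in control libraries, also without overlap. Its log2 difference was -0.49, and the split of reads between them is uncertain.

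In complex IV, 14 of the 20 genes were tested and 13 had a negative difference. At an unadjusted p below 0.05, 9 were lower, against 10.7% of all tested genes. The share was 57.0% among all tested genes under 1000 nt with at least 50 FPKM. The summed level of the 20 complex IV genes was 2490, 2457 and 2589 FPKM in diabetic 1, 2 and 3. It was 3384, 3811 and 2852 FPKM in control 1, 2 and 3. All of these subunits surround the catalytic core, which the mitochondrial genome encodes. Cox8a, the most abundant of them, was at 412.5, 401.8 and 417.0 FPKM in diabetic libraries and at 551.9, 604.1 and 478.3 FPKM in control libraries. The diabetic values spanned a narrow range below all control values, with a log2 difference of -0.40 (95% interval -0.65 to -0.15, adjusted p = 0.142, limma). Cox5a, a subunit on the matrix side, was at 125.2, 113.3 and 122.2 FPKM in diabetic libraries and at 146.2, 140.2 and 146.8 FPKM in control libraries. Here both groups were tight and apart, although the log2 difference was smaller, at -0.26 (95% interval -0.43 to -0.10, adjusted p = 0.145, limma). It was -0.093 under quantile normalization and -0.13 in TPM, and likewise -0.13 with the length trend removed.

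Several subunits of complex IV exist as isoforms used in different tissues. Cox6a1, the widely expressed isoform of subunit 6A, was at 352.3, 348.3 and 362.8 FPKM in diabetic libraries and at 486.1, 554.2 and 407.7 FPKM in control libraries, without overlap and with a log2 difference of -0.43, and part of its reads may be shared with the overlapping gene Gatc on the same strand. Its heart and skeletal muscle counterpart Cox6a2 was listed at 0 in 5 libraries and at 0.247 FPKM in control 1. Cox4i1, the common isoform of subunit 4, was at 291.7, 317.2 and 345.8 FPKM in diabetic libraries and at 419.1, 435.0 and 349.2 FPKM in control libraries, which were apart by a small margin. Cox4i2, known from lung and from cells at low oxygen, was at 28.0, 18.9 and 22.6 FPKM in diabetic libraries and at 33.4, 25.2 and 31.7 FPKM in control libraries, and the groups overlapped. Cox4i2 made up 6.84 ± 1.69% of the summed FPKM of both isoforms in diabetic and 7.06 ± 1.46% in control retina (SD, n = 3 each, p = 1.0, exact permutation test, two-sided). The log2 differences were -0.33 for Cox4i1 and -0.38 for Cox4i2.

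The muscle isoform genes Cox7a1 and Cox8b and the testis isoform genes Cox7b2 and Cox8c were at or near 0. Cox7a1 was at 0, 0.486 and 0.436 FPKM in diabetic libraries and at 0.483, 0 and 0.642 FPKM in control libraries. Cox8b was at 0.165, 0 and 0 FPKM in diabetic libraries and at 1.10, 0.518 and 0.245 FPKM in control libraries, which is at most 6 fragments in any library. Cox7b2 was at 0.345 FPKM in control 2 and listed at 0 elsewhere, and Cox8c and Cox6c-ps1 were listed at 0 in every library. These 5 genes and Cox6a2 are the 6 that did not pass the filter, so the counts above do not speak of them. Striated muscle markers were low as well, with 7 genes summing to 14.4 to 17.7 FPKM in diabetic libraries and 13.5 to 14.5 FPKM in control libraries. Cox6b2, known as a testis isoform, was the only tested gene of the 46 with a positive difference. It was at 1.68, 2.14 and 3.04 FPKM in diabetic libraries and at 2.25, 2.29 and 1.16 FPKM in control libraries, with overlapping groups, a log2 difference of 0.22 (95% interval -0.43 to 0.88) and a sign that changed to -0.021 without control 3.

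The remaining complex IV genes had negative differences under each scaling tried. Cox6c, Cox7c, Cox7b and the entry named Cox7a2l2 had log2 differences between -0.54 and -0.46, and in each the groups did not overlap. The identity of the Cox7a2l2 entry is uncertain, since it lies on chromosome 8 and RefSeq places that symbol on chromosome 14. Cox7a2l, which links complex IV to complex III in supercomplexes, had -0.23 and Cox5b had -0.24, both with overlapping groups. Cox6b1 was listed at 2 places, with -0.23 for the entry of 601 nt on chromosome 1 and -0.15 for an unbroken block of 261 nt on chromosome 2, so these values share the uncertainty of copies. No protein-coding entry of the table carries the symbol Cox7a2, the liver-type isoform of subunit 7A, so that gene could not be described here. Ndufa4, named for complex I but known from human cells as a subunit of complex IV and not chosen by the symbols above, was at 497.0, 451.1 and 537.8 FPKM in diabetic libraries and at 699.2, 792.8 and 554.4 FPKM in control libraries, with a log2 difference of -0.45.

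**Figure D2:**
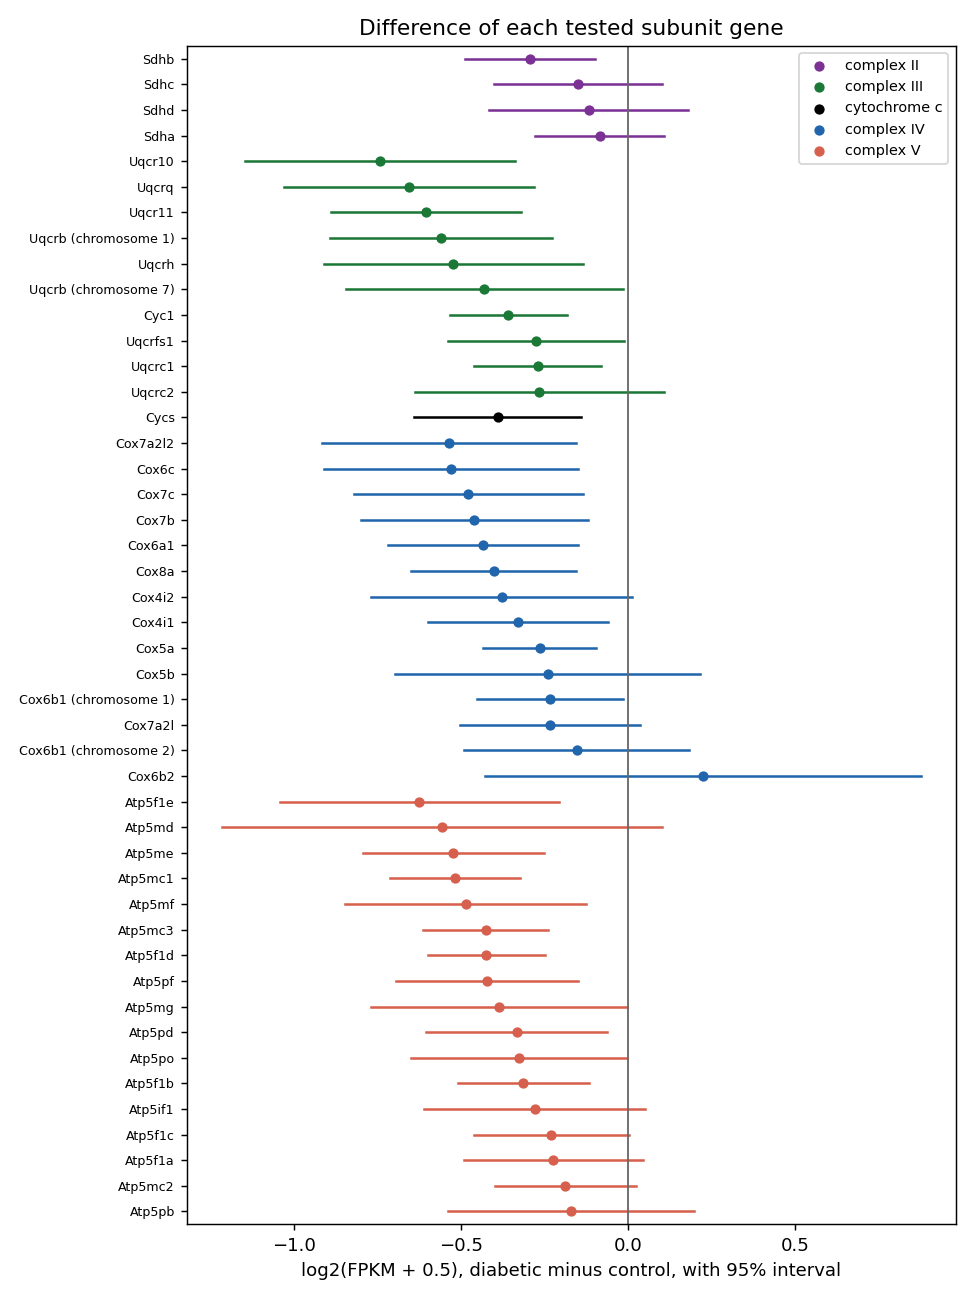
Log2 difference of each of the 46 tested subunit genes, diabetic minus control, as a point with its 95% interval from limma, coloured by complex. Complex III holds the most negative difference, Uqcr10 at -0.74, and Cox6b2 at 0.22 is the only point right of 0.

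In complex V all 17 genes had negative log2 differences in FPKM, with Atp5mc2 and Atp5f1a positive under quantile normalization. At an unadjusted p below 0.05, 11 were lower, against 10.7% of all tested genes. The share was 57.0% among all tested genes under 1000 nt with at least 50 FPKM. The summed level of the 17 complex V genes was 3023, 2795 and 3020 FPKM in diabetic 1, 2 and 3. It was 3898, 4245 and 3318 FPKM in control 1, 2 and 3. Atp5f1b, the catalytic beta subunit and the most abundant of the 52, was at 581.2, 546.3 and 584.1 FPKM in diabetic libraries and at 713.8, 714.9 and 697.1 FPKM in control libraries. Both groups were tight and did not overlap, with a log2 difference of -0.31 (95% interval -0.51 to -0.12, adjusted p = 0.144, limma), which shrank to -0.18 in TPM and -0.032 under quantile normalization. Atp5f1a, the alpha subunit that alternates with beta in the F1 head, was at 354.7, 286.5 and 344.2 FPKM in diabetic libraries and at 397.2, 404.8 and 346.5 FPKM in control libraries. Diabetic 1 lay above control 3, and the log2 difference of -0.22 was 0.0031 under quantile normalization.

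Atp5f1d, the delta subunit of the central stalk, was at 52.1, 49.2 and 51.0 FPKM in diabetic libraries and at 71.8, 69.8 and 63.6 FPKM in control libraries, without overlap and with a log2 difference of -0.42 (95% interval -0.60 to -0.25, adjusted p = 0.127, limma). The epsilon subunit gene Atp5f1e averaged 174.8 ± 4.13 FPKM in diabetic and 275.9 ± 70.9 FPKM in control retina (SD, n = 3 each), with -0.62 on the log2 scale. Atp5f1c, the gamma subunit that turns inside the head, had -0.23 and lay between 28.0 and 29.0 FPKM in diabetic libraries and between 29.4 and 37.3 FPKM in control libraries. Its gene length in the table is 7359 nt, the longest of the 52, and FPKM divides by that length. With the length trend removed its log2 difference was -0.41. Of the peripheral stalk genes, which hold the head still, Atp5pd, Atp5pf and Atp5po had log2 differences between -0.42 and -0.33. Atp5pb, which encodes subunit b of the same stalk, averaged 1.83 ± 0.24 FPKM in diabetic and 2.11 ± 0.06 FPKM in control retina (SD, n = 3 each). The table holds a second gene of the same length of 2063 nt, LOC100911417, described as like subunit b, at 0.535, 0.458 and 0.410 FPKM in diabetic and 3.02, 0.481 and 1.66 FPKM in control libraries, so the level of Atp5pb is uncertain.

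Subunit c forms the rotating ring in the membrane, and its 3 genes encode the same mature protein with different import sequences. Atp5mc1 was at 86.2, 75.7 and 84.8 FPKM in diabetic libraries and at 122.8, 120.6 and 110.5 FPKM in control libraries. Atp5mc3 was at 157.9, 147.1 and 153.4 FPKM in diabetic libraries and at 209.0, 217.9 and 190.3 FPKM in control libraries. Both were lower in every diabetic library, with log2 differences of -0.52 (95% interval -0.71 to -0.32) and -0.43 (95% interval -0.61 to -0.24) and adjusted p of 0.127 and 0.128 (limma). Atp5mc2 was at 204.6, 185.3 and 215.9 FPKM in diabetic libraries and at 245.4, 227.8 and 216.8 FPKM in control libraries, apart by a narrow margin, and its log2 difference of -0.19 was 0.025 under quantile normalization. Of the summed FPKM of the 3 genes, Atp5mc1 held 18.8 ± 0.36% in diabetic and 21.3 ± 0.042% in control retina (SD, n = 3 each). Atp5mc2 held 46.2 ± 1.19% in diabetic and 41.5 ± 1.18% in control retina (SD, n = 3 each). Atp5mc3 held 35.0 ± 1.15% in diabetic and 37.2 ± 1.18% in control retina (SD, n = 3 each). In each of the 3 shares the groups did not overlap, with Atp5mc2 higher and the others lower in diabetic retina. For each share the exact two-sided permutation p was 0.1, the smallest that 3 against 3 libraries can give, and 0.133 when adjusted over the 4 shares compared.

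**Figure D3:**
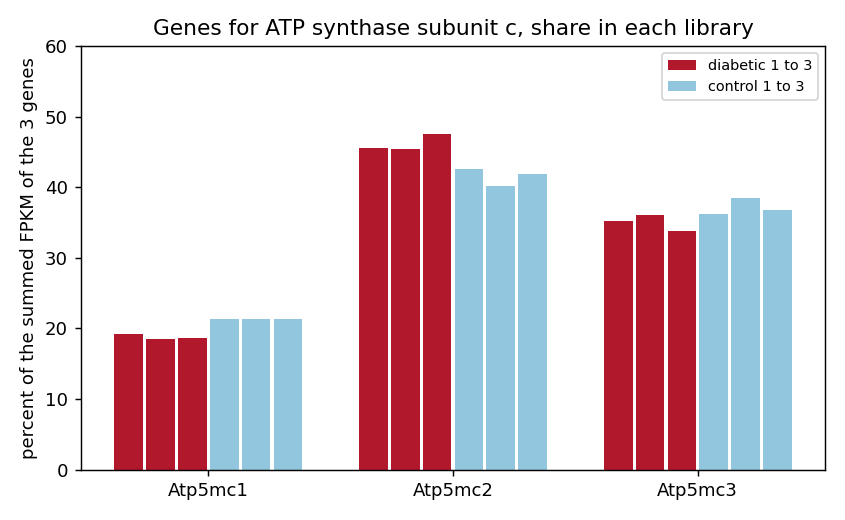
Percent of the summed FPKM of Atp5mc1, Atp5mc2 and Atp5mc3 held by each gene in the diabetic libraries 1 to 3 (left bars) and the control libraries 1 to 3 (right bars). The Atp5mc2 bars of all diabetic libraries are higher than those of all control libraries, and the Atp5mc1 and Atp5mc3 bars are lower.

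The small membrane subunits e, f and g, which shape the dimer of the synthase, had log2 differences of -0.52 for Atp5me, -0.49 for Atp5mf and -0.39 for Atp5mg. Atp5me averaged 130.5 ± 14.2 FPKM in diabetic and 188.0 ± 21.2 FPKM in control retina (SD, n = 3 each) and did not overlap. Atp5md, for the subunit DAPIT, had -0.56 with overlapping groups, and its entry is an unbroken block of 308 nt on another chromosome than the gene in RefSeq. Atp5if1, the factor that blocks the synthase when it runs in reverse, was at 198.7, 187.7 and 193.3 FPKM in diabetic libraries and at 257.8, 268.1 and 186.8 FPKM in control libraries. Control 3 was the lowest of all 6 libraries for Atp5if1, and the log2 difference was -0.28 (95% interval -0.61 to 0.05).

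The libraries were not evenly spaced. Against the control mean, the median of the 46 genes was -0.35, -0.42 and -0.32 in diabetic 1, 2 and 3 and 0.03, 0.18 and -0.19 in control 1, 2 and 3. Control 3 was the lowest control library in 44 of the 46 genes, control 2 was the highest of all libraries in 36, and diabetic 2 was the lowest of all in 30. Control 3 is also the library with high lens markers. The count of genes lower at an unadjusted p below 0.05 was 40 without control 3, and between 24 and 27 when any other library was left out. The part of the lens RNA in these values was not tested.

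**Figure D4:**
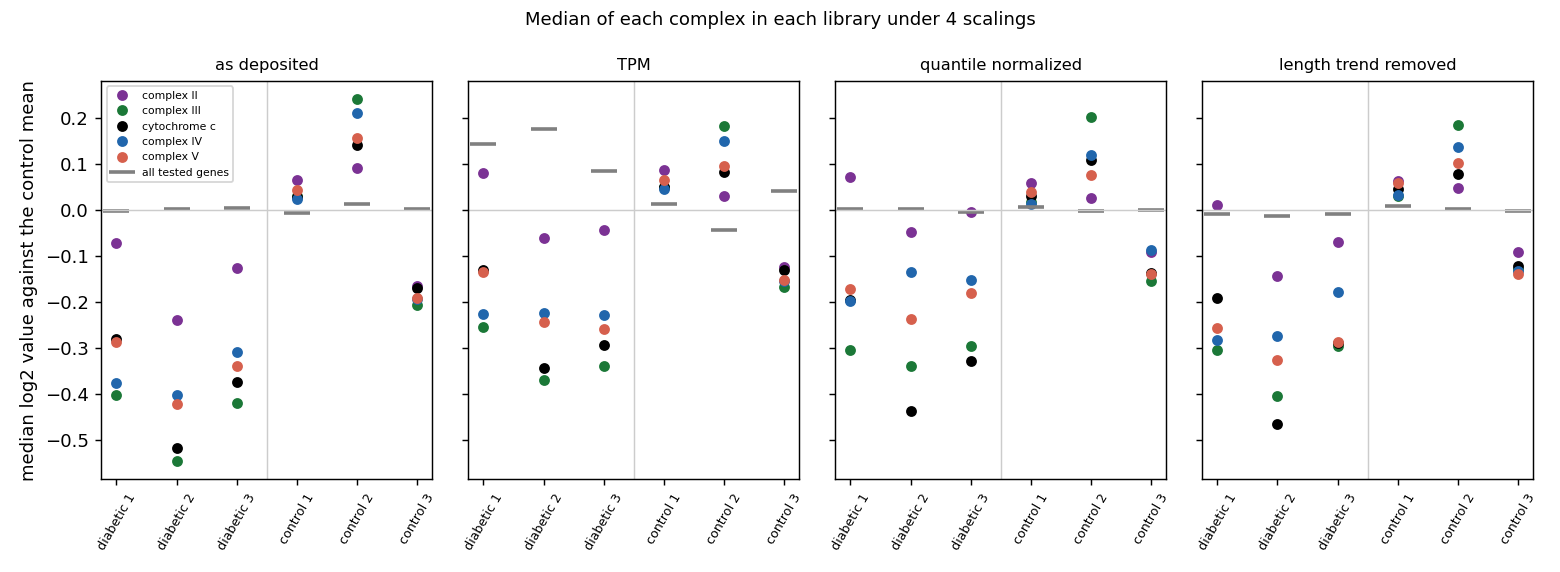
Median log2 value of each complex in each library against the control mean, for FPKM as deposited, TPM, quantile-normalized values and values with the length trend removed, with dashes for all tested genes. The medians of complexes III, IV and V lie lower in all diabetic libraries than in all control libraries in each panel except complex V in TPM, where diabetic 1 at -0.13 lies above control 3 at -0.15.

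Over the whole table, genes of 500 to 2000 nt and genes of at least 50 FPKM also had negative medians in FPKM. The class of 1000 to 2000 nt was at 0.039 in TPM, where the median of all tested genes was 0.13. The 46 genes had a median length of 624 nt, against 2100 nt for all tested genes, and 37 of the 52 had a mean of at least 50 FPKM. Over all tested genes the median log2 difference was -0.15 at 500 to 1000 nt, -0.09 at 1000 to 2000 nt and 0.055 at 2000 nt or more. In the same 3 length classes the subunit genes had medians of -0.33 (14 genes), -0.27 (12 genes) and -0.20 (4 genes). Under 500 nt the medians were -0.48 for 16 subunit genes and -0.02 for all 1886 tested genes. Lengths were not matched within this class, with a median of 160.5 nt for all tested genes and 433.5 nt for the 20 subunit genes, tested or not. Among all 419 tested genes under 1000 nt with at least 50 FPKM, 57.0% were lower at an unadjusted p below 0.05 with a median of -0.33, and of the 25 subunit genes among them 22 were lower, with a median of -0.43. Of the same 419 genes, 374 had a negative difference. Their median was -0.16 under quantile normalization, -0.22 with the length trend removed and -0.19 in TPM. For the 25 subunit genes the medians were -0.22, -0.30 and -0.29 in the same order. Across the 46 genes the log2 difference and the log10 of the gene length had a Pearson r of 0.35 and a Spearman coefficient of 0.49, as a description across genes of the same libraries. With the log10 of the mean FPKM the coefficients were -0.30 and -0.18, and -0.11 and -0.17 over the 37 genes of at least 50 FPKM.

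With the length trend of each library removed, the median of the 46 genes was -0.26, 45 differences were negative and 25 were lower at an unadjusted p below 0.05, against 9.55% of all tested genes. TPM moved the median of all genes by 0.13, and relative to that median the subunit genes were at -0.36 in TPM and at -0.37 in FPKM. In TPM 43 of the 46 were negative and 21 were lower at an unadjusted p below 0.05, where 4.23% of all tested genes were lower and 18.4% higher. Under quantile normalization the median was -0.18, 41 were negative and 16 were lower, against 8.71% of all tested genes. Several genes described above were then much closer to 0, with -0.11 for Sdhb, -0.19 for Cyc1, -0.085 for Uqcrc1, -0.11 for Uqcrfs1, -0.16 for Cox8a, -0.19 for Cox6a1, -0.11 for Cox4i1, -0.23 for Atp5mc3 and -0.046 for Atp5if1. Uqcr10 was at -0.71, Uqcr11 at -0.44 and Atp5mc1 at -0.36.

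**Figure D5:**
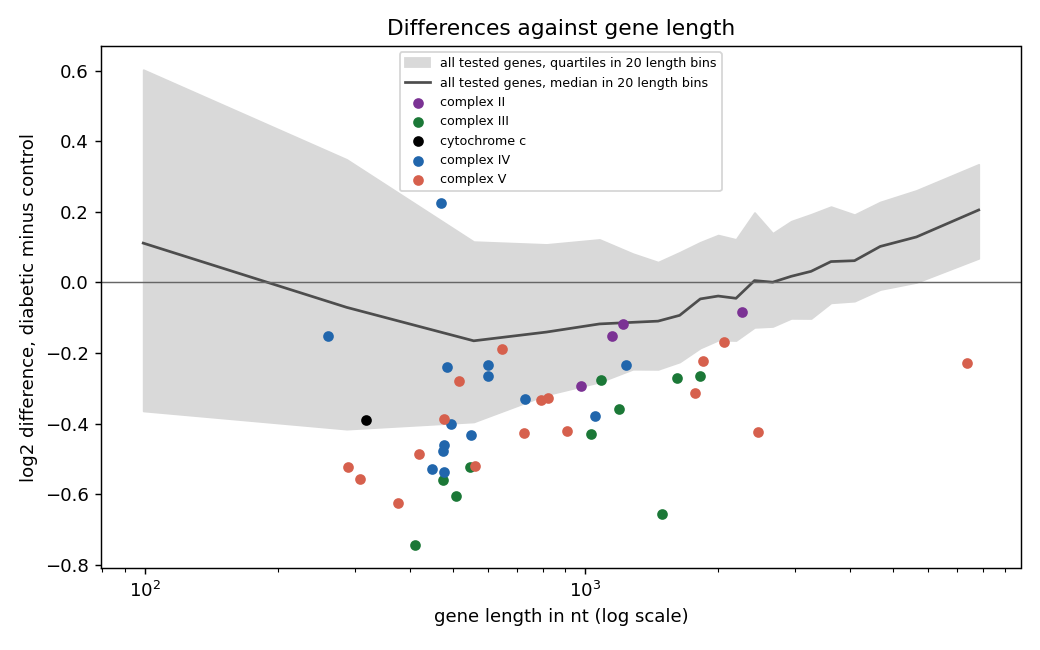
Log2 difference, diabetic minus control, against gene length on a log scale for the 46 subunit genes, coloured by complex, over the median (line) and quartiles (band) of all tested genes in 20 length bins. Most points lie below the line, including those of genes over 1000 nt.

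Rod photoreceptors are the most abundant cells of the rat retina, and rod markers were set beside the subunit genes. Of 7 rod markers 5 had every diabetic library below every control library, against 13.6% of all tested genes. Of the same 7 markers 6 had a negative difference, 2 were lower at an unadjusted p below 0.05 against 10.7% of all tested genes, and none passed the adjusted threshold. Their median was -0.31, but -0.11 under quantile normalization. In TPM it was -0.17, where the median of all tested genes was 0.13. Their summed level was 21080, 19135 and 22567 FPKM in diabetic 1, 2 and 3. In control 1, 2 and 3 it was 26445, 28525 and 26852 FPKM. In bulk tissue, fewer cells of a type and less RNA per cell cannot be told apart. The part of rods in the lower subunit levels was not tested. The Muller glia markers Rlbp1, Glul, Slc1a3 and Aqp4 had 2 negative and 2 positive differences. Pigment epithelium markers had a median of -0.31, with sums of 39.9 to 91.3 FPKM in diabetic libraries and 42.3 to 90.1 FPKM in control libraries. Corneal markers had a median of 0.19 over 2 tested genes, and myelin markers had 0.01. The 3 corneal markers summed to 8.49 FPKM in diabetic 1 and 8.19 FPKM in control 2. In the other libraries they summed to between 0.308 and 2.22 FPKM. The part of corneal RNA in the subunit levels was not tested.

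The partner subunits encoded by the mitochondrial genome had differences in both directions. Of 6 such genes of complexes III to V, 3 had a negative and 3 a positive log2 difference. Of the same 6, 0 had an unadjusted p below 0.05. The median was -0.05, but 0.055 without the length trend and 0.17 after quantile normalization. In TPM it was 0.089, where the median of all tested genes was 0.13. Mt-cyb, the cytochrome b of complex III, averaged 5172 ± 690 FPKM in diabetic and 4534 ± 590 FPKM in control retina (SD, n = 3 each). For the catalytic complex IV subunit gene Mt-co1 the level was 9807, 10430 and 12115 FPKM in diabetic libraries and 12674, 11345 and 11502 FPKM in control libraries, and the groups overlapped. Mt-co3 was at 8320, 8806 and 9658 FPKM in diabetic libraries and at 9912, 12054 and 9966 FPKM in control libraries, without overlap, with a log2 difference of -0.25. The proton channel subunit gene Mt-atp6 of complex V had 0.04. The difference between nuclear and mitochondrial subunits was not tested.

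Nuclear complex I subunit genes, taken by symbols of the Ndufa, Ndufb, Ndufc, Ndufs and Ndufv series, were set beside the other complexes. These symbols also take in Ndufa4, named above as a subunit of complex IV, and Ndufa4l2. Of 36 tested, 34 had a negative difference and 26 were lower at an unadjusted p below 0.05, against 10.7% of all tested genes. Their median was -0.35, with -0.18 under quantile normalization, -0.22 in TPM and -0.23 with the length trend removed. The positive differences were those of Ndufa4l2 (0.59) and of Ndufa1, at 65.4 FPKM in diabetic 1 and at 0.554 to 1.46 FPKM in the other libraries. Assembly factors, which build complexes II to V without being part of them, had 27 of 33 tested genes negative and 11 lower at an unadjusted p below 0.05, against 10.7% of all tested genes. Their median was -0.15, with -0.17 under quantile normalization, but -0.025 in TPM and -0.071 with the length trend removed. Coa3, which helps to make Mt-co1 protein, averaged 32.3 ± 1.53 FPKM in diabetic and 41.9 ± 2.04 FPKM in control retina (SD, n = 3 each), with -0.37 on the log2 scale. Cox17, which brings copper to complex IV, had -0.43 and Fmc1, known from yeast as a factor for assembly of the F1 head, had -0.45. The heme A enzyme gene Cox15 had 0.26 and was the most positive of this list. None of these passed over all tested genes.

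Regulators of nuclear respiratory genes had differences in both directions. Ppargc1a, a coactivator known to raise mitochondrial gene expression, was at 14.8, 15.6 and 15.2 FPKM in diabetic libraries and at 7.48, 9.49 and 12.1 FPKM in control libraries. All diabetic values were higher than all control values, with a log2 difference of 0.65 (adjusted p = 0.139, limma). Its relative Ppargc1b had 0.41 and the mitochondrial RNA methyltransferase gene Tfb1m had 0.24. In the other direction, the nuclear receptor gene Esrra, a partner of Ppargc1a, had -0.19 and the mitochondrial transcription factor gene Tfb2m had -0.37. Nrf1 and Gabpa, whose products bind the motifs shown above, had 0.14 each, and the mitochondrial DNA-binding factor gene Tfam had -0.12. Of 13 regulators, 3 were higher at an unadjusted p below 0.05, against 9.15% of all tested genes, and 2 were lower, against 10.7%. The median was 0.10, and it lay between 0.035 with the length trend removed and 0.23 in TPM. The median of all tested genes in TPM was 0.13.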

How the data were processed

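Poly-A RNA of 6 rat retinas, each labelled with a body weight of its own, was sequenced as read pairs, and the labels' protocols name no strand marking. Alignment used HISAT2 2.0.5 according to the submitters' processing notes, while the counter, genome build and annotation were not given in the sources used here. Expression was deposited by the authors as FPKM in 1 table that also holds the length, position and biotype of each gene, per the file headers. In every library FPKM times gene length gave whole multiples of 1 step (100% of values within 0.05 of a whole number), from which fragments were rebuilt. Genes averaging 0.5 FPKM or more were fitted on the log2(FPKM + 0.5) scale using limma 3.58.1 (R 4.3.3) with group as the only term, eBayes with trend, two-sided, Benjamini-Hochberg over 16363 genes and a threshold of 0.05. The scale understates changes of low genes. Intervals cover the spread between animals and floors cover counting error only.

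The members and gene lists were chosen with earlier results of these data known. Values in each library are given for a set of core and isoform genes, for the 3 members of smallest p per complex and for members of opposite sign, while Uqcrh, Uqcrq, Uqcrc2, Atp5me, Atp5f1e, Atp5f1c, Atp5pb, Ndufa4, LOC100363502, LOC100911417 and the genes named from the other lists were chosen after their values were seen. Of the 52 members, 7 overlap another gene of at least 1 FPKM (among them Cox6a1 with Gatc and Atp5pf with Gabpa), so reads may be shared, and 6 are a single block. Alternatives were other pseudocounts, filters, scalings and limma settings, voom on the rebuilt counts, the protein-coding genes by themselves, a replicate block, a lowess length trend (span 0.4), and each library left out. 1 rod marker is not reported here. The fit was tested on simulated data. Scipy 1.17.1 and matplotlib 3.10.9 were used for permutation tests and figures.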

Additional observations from a re-analysis of the deposited data

How the results depend on the processing

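Under quantile normalization 16 of the 46 subunit genes were lower at an unadjusted p below 0.05, against 8.71% of all tested genes. There 17 did not overlap, the median was -0.18, and the cause was not tested. Voom called 2 genes of the whole table where limma on FPKM called 0. With 1 library left out, the count over all genes was between 0 and 4 and the lower subunit genes numbered between 24 and 40. The median of the subunit genes lay between -0.46 and -0.30, and the count of higher subunit genes was 0 throughout. Subunit genes without overlap numbered between 29 and 41. Leaving out a library cannot make separate groups overlap. This count could therefore not fall below its value of 29 in all libraries, and it does not test stability. The other filters, the fit without the eBayes trend, the protein-coding genes by themselves and the replicate block left each log2 difference unchanged. Signs could not change there. Counting those settings too, signs changed in 7 of 391 alternative values of 23 named genes. These were Sdha (0.053) and Sdhd (0.019) in TPM, Sdha (0.091), Sdhc (0.013), Atp5mc2 (0.025) and Atp5f1a (0.0031) under quantile normalization, and Cox6b2, which ranged from -0.021 without control 3 to 0.39 without diabetic 1. Libraries of the same number did not deviate together (r between -0.076 and 0.00061 over tested genes, and no library correlated best with its own number). No pairing by number was therefore seen, but 3 libraries per group cannot exclude one. A replicate block gave 27 lower subunit genes, where 9.15% of all tested genes were lower, and 0 genes passing over the whole table. Leaving out members whose gene is 1 unbroken block, an alternative chosen after seeing the data, gave 29 lower genes of 42. Of all tested genes 10.7% were lower. The 6 genes under the filter had at most 6 fragments in a library and were not tested.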

Other observations

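Mt-atp8 and Mt-atp6 are neighbours on the same mitochondrial messenger RNA, yet the table gives them very different levels. Mt-atp8 was at 67.2, 122.7 and 145.0 FPKM in diabetic 1, 2 and 3 and at 54.4, 69.7 and 97.5 FPKM in control 1, 2 and 3, for a gene length of 204 nt. Mt-atp6 was at 7477, 8463 and 9138 FPKM in diabetic 1, 2 and 3 and at 7069, 9039 and 8314 FPKM in control 1, 2 and 3, for a gene length of 681 nt. Mt-co2, a catalytic subunit of complex IV, was likewise at 602.9, 668.6 and 718.8 FPKM in diabetic libraries and at 996.2, 735.0 and 660.1 FPKM in control libraries, far under Mt-co1 and Mt-co3. How reads in these genes were counted was not given in the sources used here.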
